A study of Mus musculus with 15 samples.

Results

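Regulatory T cells (Tregs) from skin inflamed with MC903 were compared with Tregs from lymph nodes (LN) in wild-type (WT) mice. The comparison takes the 3 WT MC903 skin libraries and the 3 WT LN libraries, 6 of the 15 RNA-seq libraries of the series, chosen by their titles alone. The 3 WT libraries of untreated skin were set beside them, to show which differences between skin and LN remained in inflamed skin and which came closer to the LN level.

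Tregs are CD4 T cells that restrain other immune cells, and Foxp3 is the transcription factor that defines them. In lymph nodes many Tregs are resting cells that recirculate through blood and lymph, using Ccr7 on the way in and S1pr1 to leave. Tregs that settle in skin and other tissues take on an effector state, with the IL-33 receptor Il1rl1, the repair factor amphiregulin (Areg), the cytokine Il10 and the transcription factors Gata3, Batf and Rora. MC903, also called calcipotriol, mimics vitamin D and, put on mouse skin, gives an inflammation resembling atopic dermatitis.

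All mice were adult C57BL/6 and carried Foxp3 cre-eyfp, an allele that puts Cre and yellow fluorescence (YFP) under Foxp3, in the controls as well. From each tissue the CD45+CD3+CD4+YFP+ cells were isolated by sorting. For WT MC903 skin the agent was dissolved in ethanol and put on the ears on alternate days, 4 times in all, and the ears alone were taken. For WT LN the axillary nodes of untreated mice were taken, and for untreated WT skin the back and the ears. Skin was digested for 90 minutes, and no digestion is stated for LN. Tissue, site, drug and digestion therefore differ together between MC903 skin and LN and cannot be told apart, nor can site and drug between MC903 and untreated skin. No ethanol-only group and no LN of treated mice enter this comparison. The other 6 libraries, from mice that also carried Rora fl/fl, enter the fit through the shared estimate of the spread and the choice of genes tested, 13578 with them and 12948 without. The titles call the libraries biological replicates, and how many mice each holds is not stated, so the p-values measure the spread between these libraries.

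The 15 libraries held between 19.8 and 27.7 M counts each. The first principal component of the 9 WT libraries held 69.9% of the variance and set LN apart from both skin groups, and the second held 10.3%. Levels are given as CPM, counts scaled to a common library size after TMM correction, in library order 1, 2, 3. They are not corrected for gene length, so levels are compared between samples and not between genes. In bulk RNA, fewer cells of a type and less RNA per cell cannot be told apart.

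The sort markers were examined first. Foxp3 was at 159, 110.5 and 116 CPM in MC903 skin, 28.4, 16.2 and 41.8 in LN and 148, 202 and 163 in untreated skin. Every skin library was above every LN library, and the log2 difference between MC903 skin and LN was 2.16 ± 0.26 (SE, edgeR adjusted p = 5.16e-06). Cd4 was at 402, 369 and 426 CPM in MC903 skin and 434, 452 and 407 in LN, ranges that overlap. Cd3e, a chain of the T cell receptor complex, fell by 0.84 on the log2 scale relative to LN (adjusted p = 5.4e-05). All 10 genes of a list of Treg and sort markers had counts in each of the 3 groups.

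Transcripts of other cells also moved with the tissue. The summed CPM of 21 keratinocyte markers was 533.9, 194 and 602 in MC903 skin and 31.7 to 33.8 in LN, where 7 of the 21 were at 0, among them Krt6a, Krt15 and Trp63. It was 437 to 829 in untreated skin. Epcam led the sum in MC903 skin and LN, at means of 117.7 and 14.63 CPM, and Sfn in untreated skin, at 257.1. The keratin Krt14 varied more, at 66.8, 3.45 and 115 CPM in MC903 skin and 92.4, 58.1 and 6.08 in untreated skin. The sum of 14 B cell markers was 16.0 to 19.7 in MC903 skin and 288, 249.5 and 919 in LN, highest in LN library 3. The sum of 20 fibroblast and endothelial markers was 160.4, 187 and 466 in MC903 skin, highest in library 3, and 114 to 156 in LN. In LN nearly all of it was Pecam1, at a mean of 131.7 of 134.9 CPM, and 6 of the 20 were at 0. Pecam1 was at a mean of 88.67 CPM in MC903 skin. Of 19 of these markers tested, 11 were higher and 1 lower in MC903 skin than in LN. Mast cell, basophil and granulocyte markers summed to 14.6 to 47.9 in MC903 skin and 3.23 to 5.37 in LN, and macrophage, dendritic and Langerhans markers to 531 to 713 and 860.0 to 2831. Cd74 led the last sum in both groups, and of 19 of its markers tested 7 were higher and 3 lower in MC903 skin. In all 52.6% of them passed the test, beside 51.1% of all genes. The part of these other cells in the results below was not tested. Some values are also given without LN library 3 and MC903 skin library 3, left out together after the data were seen. Among the libraries left, B cell markers stay far higher in LN and keratinocyte markers far higher in MC903 skin. Leaving out these libraries is therefore no test of that part.

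Of 13578 genes tested, 6934 (51.1%) differed between MC903 skin and LN at an adjusted p under 0.05, which is what "called" means here: 3602 (26.5%) were higher and 3332 (24.5%) lower in MC903 skin. In untreated skin 7824 genes (57.6%) were called against the same LN libraries, 3911 higher (28.8%) and 3913 lower (28.8%). Between MC903 and untreated skin 1421 genes (10.5%) were called, 683 higher (5.03%) and 738 lower (5.44%). Counts of list members are to be read beside these shares. The split of calls into higher and lower depends on the scaling. With library totals in place of TMM factors, 39.0% in place of 51.9% of the genes called against LN were higher in MC903 skin, and 72.5% in place of 48.1% of those called against untreated skin. That scaling moved the median log2 change of all genes against LN from 0.02 to -0.20, and leaving out LN library 3 moved it to 0.11.

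Many of the largest changes were in genes typical of other cells. By the rule for naming, the 10 genes most raised in MC903 skin over LN with a mean log2 CPM no lower than 3 were Krt15, Tm4sf1, Krt14, Serpinb2, Krt6a, Cxcl1, Krt5, Dcn, Cyr61 and Atf3, and the most reduced included Bank1, Ms4a1, Treml2, Faim3, Gpr34, Fcer2a, Cd79a, Ciita and Capn3. Keratins and the matrix gene Dcn stand in the first list and the B cell genes Ms4a1 and Cd79a in the second, beside the marker sums given above. Krt15 was at 43.3, 1.23 and 58.7 CPM in MC903 skin and had no count in LN. Its group mean was at least 1050-fold above LN, set against a floor of 3 counts over the LN group. MC903 library 2 was far below the others, as it was for Krt6a, at 20.9, 0.149 and 27.5 CPM. The genes described from here on were taken mainly from the gene lists and from the 10 largest changes each way among genes whose mean log2 CPM was no lower than 7, a level chosen after the values were seen.

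Gzmb and genes of the tissue repair and IL-33 axis were far higher in inflamed skin than in LN. Gzmb, the serine protease granzyme B, was at 1185, 956 and 1247 CPM in MC903 skin, 11.8, 6.66 and 14.8 in LN and 988, 842 and 973 in untreated skin. The 2 skin groups overlapped and both lay far above LN. Nkg7, another gene of cytotoxic cells, was at 25.0 to 29.6 CPM in MC903 skin and 73.4 to 147 in LN. The Gzmb fold over LN was 102 (log2 6.67 ± 0.29, adjusted p = 6.67e-11). Il1rl1, the IL-33 receptor, was at 924, 769 and 1079 CPM against 21.7, 19.8 and 26.8 in LN and 649, 593 and 768 in untreated skin. It was 40.5-fold higher than in LN (adjusted p = 5.57e-12). Of the 21 genes of a tissue repair and IL-33 axis list, 20 rose and 1, Igfbp4, fell against LN, with a median log2 difference of 3.84, against 0.02 over all genes tested.

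Ctla4, Icos, Tnfrsf4 and Tnfrsf18, receptors of activated Tregs, were also higher than in LN, while the inhibitory receptor Btla was at 28.5 to 38.4 CPM in MC903 skin and 106 to 139 in LN. Ctla4, which strips B7 ligands from antigen-presenting cells, was at 3568, 2434 and 3404 CPM in MC903 skin, 306, 305 and 295 in LN and 3785, 2980 and 3655 in untreated skin. It was 10.4-fold higher than in LN (adjusted p = 7.77e-11). The co-stimulatory receptor Icos rose 8.36-fold, Tnfrsf4 (OX40) 6.01-fold and Tnfrsf18 (GITR) 3.81-fold. Of 20 Treg identity genes 13 rose and 3 fell. The 3 were Folr4, the folate receptor family member that marks Tregs, Gpr83, an orphan receptor of Tregs, and Nrp1, a marker of thymus-derived Tregs. Folr4 was at 57.9, 42.5 and 67.7 CPM in MC903 skin and 692, 711 and 384 in LN, and fell by 3.41 on the log2 scale (adjusted p = 1.48e-07). Gpr83 was at 2.54, 7.09 and 4.23 CPM in MC903 skin and 159, 152 and 114 in LN, and fell by 4.93 (adjusted p = 1.88e-07).

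Transcription factors of tissue Tregs were higher too. Of 20 such factors and regulators 18 rose against LN and the other 2, Rbpj and Zeb2, did not pass the test, with a median log2 difference of 2.40, and the same list had a median of 2.34 in untreated skin against the same LN libraries. Gata3, the type 2 lineage factor, was at 725, 673 and 835 CPM in MC903 skin, 258, 249.5 and 246 in LN and 866, 614 and 674 in untreated skin. The 2 skin groups overlapped, and the fold over LN was 2.96 (adjusted p = 1.28e-07). Bhlhe40, a stress- and clock-linked repressor, rose by 2.6 and Vdr, the vitamin D receptor, by 2.49 on the log2 scale. Crem, a cAMP-responsive regulator and no member of the list, was at 3672, 2461 and 3345 CPM against 38.9, 48.1 and 48.4 in LN, 70.03-fold higher (adjusted p = 8.27e-13).

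Genes of lipid storage, glycolysis and cell survival were among those that differed. Dgat1 and Dgat2, the enzymes that finish triglyceride synthesis, were 30.6-fold and 51.95-fold higher than in LN. Dgat1 was at 924, 784 and 827 CPM in MC903 skin and 29.5, 27.9 and 25.4 in LN. Of 30 glycolysis and hypoxia genes 23 rose and the other 7 did not pass the test, among them lactate dehydrogenase Ldha, 2.24-fold higher (adjusted p = 4.65e-07). Bcl2, the survival protein of resting lymphocytes, was at 9.46, 7.35 and 7.34 CPM in MC903 skin, 319.6, 309 and 325 in LN and 4.49, 3.23 and 6.78 in untreated skin, 39.5-fold lower than in LN (adjusted p = 2.38e-10). Its relative Bcl2l1 (Bcl-xL) went the other way and was 5.71-fold higher, and Pmaip1 (Noxa), which promotes death, was 19.4-fold higher. Of 32 oxidative phosphorylation genes 3 rose and 10 fell, in all 40.6% called, below the 51.1% of all genes, and with library totals 2 rose and 15 fell. The number that fell was 4 without MC903 library 1, 6 without MC903 library 3 or LN library 1 and 5 without LN library 2.

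**Figure D1:**
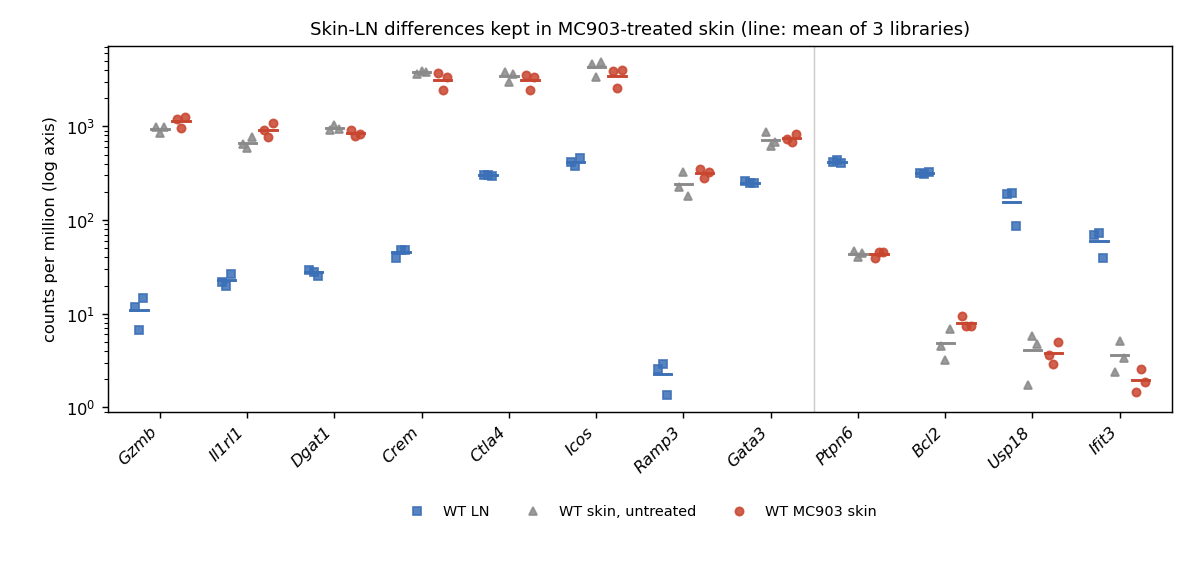
Level of 12 genes in each library, in CPM on a log axis, with LN as squares, untreated skin as triangles, MC903 skin as circles and a line at the mean of 3 libraries. Left of the grey line are genes above LN in both skin groups and right of it genes below LN in both, and both skin groups lie on the same side of LN in each.

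Homing receptors differed in both directions. Of 22 genes of skin and inflammatory homing 14 rose and 2, Cxcr3 and Itgb1, fell against LN. Ccr2, a receptor for inflammatory chemokines, was at 363, 225 and 497 CPM in MC903 skin against 21.6, 22.3 and 26.6 in LN, 15.4-fold higher (adjusted p = 7.09e-09). The skin-homing receptor Ccr8 rose 4.4-fold and Klrg1, a receptor of terminally differentiated cells, 12.9-fold. Of 16 genes of LN homing, retention and egress 3 rose, Cd69, Gpr183 and Cxcr4, and 10 fell. Cxcr4, which holds cells near stroma, was 13.1-fold above LN.

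Genes of type 2 immunity gave 10 higher and 1 lower, the signal transducer Stat6, of 17 tested. Il5, the eosinophil growth factor, was at 2.65, 3.6 and 2.1 CPM in MC903 skin and had no count in LN, which is at least 85.0-fold higher against the same floor (adjusted p = 0.00742). Il13 was at 0.187, 1.97 and 0.544 CPM in MC903 skin and had 3 counts in all of LN. Il4 was at 1.68, 1.97 and 1.17 CPM and 1.24, 1.21 and 1.1 in LN, and did not pass the test (adjusted p = 0.405, interval of the log2 difference -0.46 to 1.34). In untreated skin Il5 was at 1.23, 4.42 and 0 CPM, Il13 at 2.32, 4.2 and 2.58 and Il4 at 1.56, 3.94 and 2.37. Every MC903 library of Il13 was below every untreated one. Between MC903 and untreated skin 1 of the 17 genes was higher, 1 was lower and 15 did not pass the test. Stat5a, a signal transducer of IL-2, rose by 2.2 (adjusted p = 4.99e-09). Cyp24a1, the vitamin D-degrading enzyme induced through Vdr, was at 7.14, 0 and 14.02 CPM in MC903 skin and had no count in LN or untreated skin. Its group mean was at least 215-fold above LN, 1 of the 3 MC903 libraries being at 0. Its adjusted p of 0.0198 against LN rose as far as 0.11 over 18 alternatives. The call was lost on leaving out any LN library, with the replicate number as a block and with limma-voom. Against untreated skin Cyp24a1 did not pass the test (edgeR adjusted p = 0.0751).

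Interferon-stimulated genes were almost all lower in skin than in LN. Of 28 tested, 26 fell in MC903 skin relative to LN and the other 2, Isg15 and the signal transducer Stat2, did not pass the test. The median log2 difference was -2.16. In untreated skin 25 fell and 1, Isg15, rose against LN. Usp18, a brake on interferon receptor signalling, was at 3.66, 2.9 and 4.93 CPM in MC903 skin, 188, 193 and 86.02 in LN and 1.75, 5.75 and 4.79 in untreated skin. It was 40.6-fold lower than in LN (adjusted p = 9.38e-08). Ifit3, an antiviral protein that binds foreign RNA complexes, was at 1.46, 2.56 and 1.86 CPM against 68.7, 72.7 and 39.8, 30.7-fold lower (adjusted p = 1.04e-06). Ifit1, a related antiviral protein, was at 5.23, 6.83 and 13.5 CPM against 138, 163 and 77.04, 14.8-fold lower (adjusted p = 1.66e-05). LN library 3 was the lowest of the LN libraries for all 3 genes. Without it and MC903 library 3 the list still had 23 members lower.

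Isg15, a ubiquitin-like protein of the same response, was an exception. It was at 62.9, 45.98 and 62.5 CPM in MC903 skin, 67.8, 70.8 and 39.5 in LN and 96.5, 133 and 88.6 in untreated skin. MC903 skin and LN overlapped, with a log2 difference of -0.05 (interval -0.5 to 0.39, adjusted p = 0.848), and untreated skin was higher than both. Against untreated skin the log2 difference was -0.89 (adjusted p = 0.015), a call lost without MC903 library 2 or untreated library 2, with an adjusted p of 0.0684 at most.

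The promoters of these 3 genes are shown because 2 of them go with genes far lower in skin and the third with a gene that did not pass the test. They are the 250 bases before the start in RefSeq on GRCm38.p6, 5′ to 3′ on the gene's strand. Capitals mark GAAA followed by GAAA after any 2 bases, or the reverse complement, which is the core of the interferon-stimulated response element (ISRE) bound by the factor complex downstream of type I interferon, searched on both strands with overlapping matches joined.
Ifit3 (chr19:34583279-34583528, plus strand): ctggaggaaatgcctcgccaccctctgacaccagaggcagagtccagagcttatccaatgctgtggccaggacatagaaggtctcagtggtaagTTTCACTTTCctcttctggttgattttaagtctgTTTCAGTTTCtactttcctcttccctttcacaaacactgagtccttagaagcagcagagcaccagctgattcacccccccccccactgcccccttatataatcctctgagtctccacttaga
Ifit1 (chr19:34640639-34640888, plus strand): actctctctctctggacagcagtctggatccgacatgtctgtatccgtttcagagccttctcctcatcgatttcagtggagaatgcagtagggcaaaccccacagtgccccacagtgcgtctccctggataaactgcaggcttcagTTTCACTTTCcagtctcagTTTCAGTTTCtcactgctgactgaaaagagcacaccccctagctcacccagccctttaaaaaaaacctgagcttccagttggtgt
Isg15 (chr4:156200819-156201068, minus strand): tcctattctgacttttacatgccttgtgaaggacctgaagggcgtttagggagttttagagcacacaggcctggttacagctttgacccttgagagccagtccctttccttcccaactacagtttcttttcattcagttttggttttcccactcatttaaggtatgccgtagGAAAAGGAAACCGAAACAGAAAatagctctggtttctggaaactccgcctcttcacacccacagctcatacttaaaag
Ifit3 holds 2 matches, the first 156 bases before the start, Ifit1 holds 2, the first 104 before, and Isg15 holds 3 that overlap, the first 78 before. The motif was in 2.98% of 32851 promoters of this length, with a chromosome left out of the search. Counted by gene, 3.22% of the 10216 tested genes with a promoter in the table held it in any of their promoters. Of the list, 21 tested genes had a promoter in the table and 9 of these (42.9%) held it, as did 7 of 19 (36.8%) that fell in MC903 skin. So the letters stood in promoters of list members that fell and of Isg15, which did not.

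How far inflamed skin had moved was read from 3 tests per gene. Of the 7824 genes called between untreated skin and LN, 5169 (66.1%) were kept: called the same way in MC903 skin against LN, and not called between MC903 and untreated skin. Another 622 (7.95%) were narrowed, still called against LN but called toward LN in MC903 against untreated skin. A further 390 (4.98%) had reached LN, meaning called toward LN and no longer called against it. In 116 (1.48%) the difference was widened, in 19 it was crossed to the other side of LN, and 1508 (19.3%) were undecided, called in neither of the other tests. A further 213 genes not called in untreated skin were gained, called against LN and against untreated skin in the same direction. The 3 contrasts share libraries in pairs, so these counts are descriptions, and a missed threshold does not show equal levels.

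The direct comparison of MC903 with untreated skin carries these classes and holds the fewest calls. Leaving out MC903 library 1 left 329 narrowed, 61 widened, 245 reached and 99 gained genes, and leaving out MC903 library 3 left 355, 70, 252 and 119. Without MC903 library 2, 390 were narrowed. Without untreated skin library 2, 228 were reached and 70 widened, and without untreated library 1, 72 widened. With only the compared pair of groups in each fit, 266 were narrowed and 125 reached.

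Narrowed genes that were high in skin numbered 368, with a median log2 difference from LN of 2.23 in untreated skin and 1.39 in MC903 skin. Those low in skin numbered 254, with medians of -1.86 and -0.93. Kept genes high in skin went from 1.58 to 1.43. These medians describe how the classes were cut and carry no test.

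**Figure D2:**
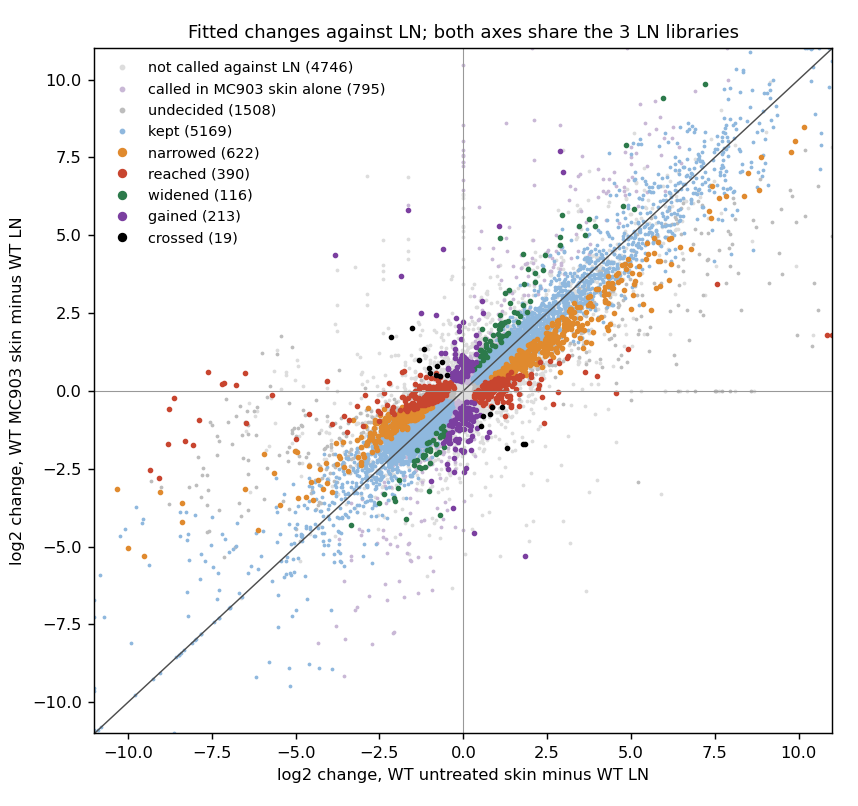
Fitted log2 change against LN of each of 13578 genes in untreated skin (horizontal axis) and MC903 skin (vertical axis), coloured by class, with the diagonal of equal change. Values beyond 11 are drawn at the edge (23 genes). The axes share the LN libraries, so points near the diagonal are no measure of likeness. The narrowed genes (622) lie between the diagonal and the horizontal line at 0, the reached genes (390) along that line and the widened genes (116) on the far side of the diagonal.

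The GTPases of immunity-associated proteins (GIMAP) moved toward LN as a group. These small GTPases support lymphocyte survival and are typical of resting T cells. All 8 tested were lower in untreated skin than in LN and all 8 were higher in MC903 than in untreated skin, where 5.03% of all genes were. Against LN 7 of 8 were still lower in MC903 skin, beside 24.5% of all genes, and the median log2 difference was -0.93, against -3.22 in untreated skin. Gimap4 was at 407, 204 and 414 CPM in MC903 skin, 1506, 1535 and 916 in LN and 36.3, 27.99 and 63.6 in untreated skin. The 3 groups did not overlap, and MC903 skin was 8.03-fold above untreated skin (adjusted p = 0.000115) and 3.86-fold below LN (adjusted p = 0.000158).

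Gimap7 was at 86.4, 26.1 and 65.3 CPM, 320.2, 282 and 126 in LN and 4.68, 1.81 and 5.44 in untreated skin, 15.01-fold above untreated skin (adjusted p = 0.000581). MC903 library 2 was the lowest of its group in all 8 genes, and LN library 3 the lowest of LN. Gimap5 was at 97.2, 58.1 and 92.2 CPM against 121, 129.7 and 93.3 in LN, ranges that overlap at their edges, and did not pass the test against LN (log2 interval -1.1 to 0.15, adjusted p = 0.187, though 0.00792 with limma-voom). The calls of Gimap6 and Gimap9 against LN (adjusted p = 0.0381 and 0.0477) were each lost without any of MC903 libraries 2 and 3 and LN libraries 1 and 2, and that of Gimap1 (adjusted p = 0.0128) without MC903 library 2 or LN library 1. Without MC903 library 2 or LN library 1 only 4 of the 8 were called below LN. The 8 rises over untreated skin held under every alternative run except a test against a 2-fold change, which 4 passed. The 8 genes lie side by side on chromosome 6, within 124 kb and with no other protein-coding gene between them in RefSeq, and reads shared by near-identical family members may be split in an unknown way.

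Some other genes of resting T cells moved toward LN. Of 22 resting lymphoid genes 16 were lower than in LN in MC903 skin. Between untreated and MC903 skin 7 rose, beside 5.03% of all genes, 1, Foxp1, fell and 14 did not pass the test. Cxcr5, which leads cells to B cell follicles, was at 1.23, 3.08 and 2.95 CPM, 41.97, 47.8 and 44.5 in LN and 0.142, 0.177 and 0.0538 in untreated skin, and rose over untreated skin by 4.2 on the log2 scale (adjusted p = 9.05e-05). B cells express Cxcr5 too. Their markers, the sum led by Cd79b, were at 16.0 to 19.7 CPM in MC903 and 9.50 to 15.3 in untreated skin, and 1 of 13 tested, Cd22, was called higher, at 0.748, 1.6 and 0.622 CPM in MC903 skin and 0.0473, 0 and 0.108 in untreated skin. Their part in the rise of Cxcr5 was not tested. Lef1, a factor of naive T cells, was at 68.01, 49.95 and 70.3 CPM against 361, 373 and 282 in LN and 26.9, 31 and 28.1 in untreated skin, and rose over untreated skin by 1.13 (adjusted p = 0.000581).

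Tcf7, the partner of Lef1, rose over untreated skin by 1.49 (adjusted p = 0.0137), a call lost without MC903 library 2 (0.0525) and with only these groups in the fit (0.0752). It stayed 10.8-fold below LN. Dpp4 (CD26), a surface peptidase of naive T cells, was at 31.1, 34.2 and 45.02 CPM, 119, 112 and 119 in LN and 5.34, 10.3 and 9.42 in untreated skin, a rise of 2.13 over untreated skin (adjusted p = 0.000583). Slamf6 rose by 1.51 (adjusted p = 3.76e-05). Of the 22 genes of the resting list 10 were kept, Bcl2 and Treml2 among them, while 5 were narrowed and 1 had reached LN. Treml2 was at 41.9, 40.5 and 40.7 CPM in LN and had 4 counts over the MC903 libraries and none in untreated skin.

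S1pr1, the receptor that lets T cells leave tissue, had reached LN by the class rule. It was at 453, 315 and 384 CPM in MC903 skin, 531, 560.4 and 359 in LN and 159, 71.3 and 204 in untreated skin. MC903 skin overlapped LN and lay above untreated skin, with a log2 difference from LN of -0.33 (interval -0.93 to 0.27, adjusted p = 0.34, but 0.0432 with limma-voom) and from untreated skin of 1.41 (adjusted p = 0.00721, and 0.0607 with only these groups in the fit). Satb1, a chromatin organiser of T cells, was at 127, 97.8 and 95.4 CPM in MC903 skin, 88.3, 80.1 and 56.7 in LN and 33.2, 35.99 and 23.3 in untreated skin, with a log2 interval against LN of -0.2 to 1.21. Every MC903 library of Satb1 was above every LN library, and with only these groups in the fit it was called above LN (adjusted p = 0.0399). Myo6, a motor protein, was at 27.2, 18.4 and 15.2 CPM in MC903 skin, 25.1, 24.7 and 25.9 in LN and 3.03, 5.79 and 3.93 in untreated skin. The intervals of S1pr1 and Satb1 still allow differences from LN of more than 1.5-fold.

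**Figure D3:**
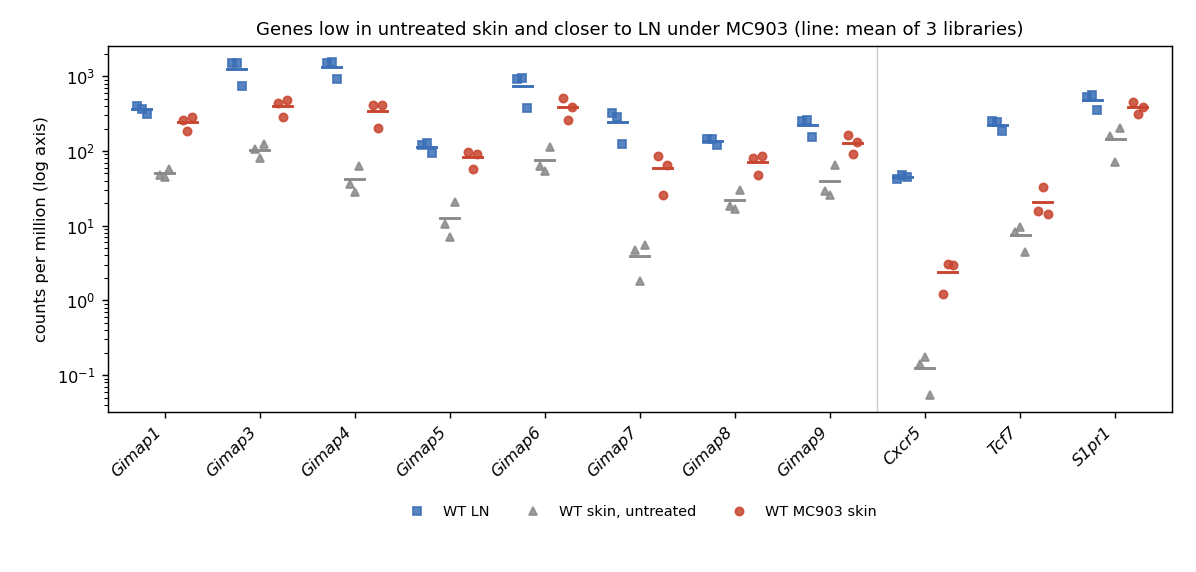
Level of 11 genes in each library, in CPM on a log axis, with LN as squares, untreated skin as triangles, MC903 skin as circles and a line at the mean of 3 libraries. The 8 GIMAP genes stand left of the grey line. In each gene the MC903 libraries lie above the untreated ones, and Cxcr5 and Tcf7 stay well below LN.

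On the side of genes high in skin, the early response genes came down. Immediate early and heat shock genes are switched on within minutes by receptor signals and by handling stress. Of 28 tested, 23 were higher than in LN and 1, Egr2, lower in MC903 skin, and 26 higher and 1 lower in untreated skin. Between untreated and MC903 skin 16 fell, where 5.44% of all genes did, and the other 12 did not pass the test, so 13 of the 28 were narrowed. The median log2 difference from LN was 1.97 in MC903 skin and 3.10 in untreated skin. Both skin groups were digested for 90 minutes and LN were not stated to be, so the digestion moved with the comparison against LN.

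Fos was at 586, 323 and 476 CPM in MC903 skin, 9.34, 8.69 and 11.2 in LN and 2003, 1703 and 1137 in untreated skin. The groups did not overlap, and MC903 skin was 3.5-fold below untreated skin (adjusted p = 0.00086) and 47.3-fold above LN. Its partner Junb was at 2847, 3143 and 3612 CPM in MC903 skin, 352, 316 and 303 in LN and 7280, 9263 and 4579 in untreated skin, 2.2-fold below untreated skin (adjusted p = 0.00213). Dusp1, a phosphatase that shuts off MAP kinases, was at 617, 647 and 725 CPM in MC903 skin, 63.7, 65.7 and 108 in LN and 2890, 2686 and 2303 in untreated skin, 3.96-fold below untreated skin (adjusted p = 3.39e-05). Atf3, Klf4, Klf6 and Nr4a1, transcription factors of the same early wave, fell by 1.7, 2.35, 1.47 and 1.63 on the log2 scale. Jun and Egr1 had reached LN, Jun at 37.5, 21.7 and 37.9 CPM against 37.3, 56.9 and 30.2 (log2 interval -0.94 to 0.23) and Egr1 at 113, 69.1 and 102 against 133, 119 and 122 (interval -0.8 to 0.01). Egr1 was called below LN with library totals (adjusted p = 0.0102) and limma-voom (0.0295). Egr2, a factor that restrains T cell activation, was lower than LN in both skin groups, at 13.8, 13.5 and 14.9 CPM in MC903 skin, 76.7, 74.3 and 82.97 in LN and 36.5, 33.8 and 27.7 in untreated skin.

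Part of the tissue-repair programme narrowed while staying far above LN. Il10, the main suppressive cytokine of tissue Tregs, was at 210.3, 222 and 173 CPM in MC903 skin, 1.81, 2.92 and 3.58 in LN and 556, 556 and 545 in untreated skin. It was 2.73-fold below untreated skin (adjusted p = 6.12e-05) and still 72.5-fold above LN. Areg was at 173, 143 and 188 CPM in MC903 skin, 5.18, 7.04 and 4.58 in LN and 384, 518 and 334 in untreated skin, 2.45-fold below untreated skin (adjusted p = 0.00148). Rora, a nuclear receptor and the gene deleted in the other mice of the series, was at 813, 739 and 812 CPM in MC903 skin, 58.6, 52.8 and 66.6 in LN and 1327, 1341 and 1510 in untreated skin, 1.77-fold below untreated skin (adjusted p = 0.00292) and 13.3-fold above LN. Id2, which blocks E proteins, fell by 1.25 on the log2 scale (adjusted p = 0.00018). In none of these 4 genes did the groups overlap.

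Cxcr6, Itgae and Ccr10, receptors that place T cells in skin and other epithelia, were lower in MC903 than in untreated skin. The list of skin and inflammatory homing genes went both ways there, with 4 higher, 5 lower and 13 not passing the test. Cxcr6, the receptor for Cxcl16 on resident T cells, was at 116, 140.2 and 138 CPM in MC903 skin, 25.7, 32.2 and 30.8 in LN and 581, 454 and 799 in untreated skin, 4.66-fold below untreated skin (adjusted p = 3.39e-05). Itgae (CD103), which binds E-cadherin, was at 279, 324 and 343 CPM in MC903 skin, 101, 104 and 158 in LN and 961, 509 and 745 in untreated skin, 2.34-fold below untreated skin (adjusted p = 0.00156). Ccr10, the receptor for a keratinocyte chemokine, had reached LN. It was at 3.29, 8.62 and 11.5 CPM, 8.63, 4.76 and 17.5 in LN and 60.5, 80.2 and 54.6 in untreated skin, with a log2 difference from LN of -0.4 (interval -1.41 to 0.6) that was 0.26 without LN library 3. Mmp9, a matrix-degrading protease, was at 3.96, 8.17 and 9.4 CPM in MC903 skin, 5.18, 4.19 and 4.61 in LN and 62.7, 63.05 and 46.7 in untreated skin, with an interval of -0.19 to 1.44. In both genes MC903 skin overlapped LN and lay below every untreated library.

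Several clock genes were lower in MC903 than in untreated skin. Of 19 genes of the circadian clock 11 were higher and 2, Dbp and Per2, lower than in LN in MC903 skin, and 9 fell between untreated and MC903 skin, beside 5.44% of all genes, while the other 10 did not pass the test. Of the 19, 6 were narrowed, 2 had reached LN and 5 were kept. Nr1d1 (REV-ERB alpha), a repressor of the clock, was at 17.98, 29.6 and 30.1 CPM in MC903 skin, 6.18, 6.72 and 5.93 in LN and 147, 106 and 111 in untreated skin, 4.69-fold below untreated skin (adjusted p = 0.000342). Hlf, a clock output factor, was at 5.72, 11.6 and 6.92 CPM in MC903 skin, 1.7, 1.74 and 0.596 in LN and 78.4, 51.8 and 63.96 in untreated skin, 7.999-fold below untreated skin (adjusted p = 0.000855). Per1 and Ciart fell by 1.36 and 1.17 on the log2 scale. Cry1 was kept, 4.19-fold above LN. The time of day at which tissue was taken is not stated in the sources used here.

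**Figure D4:**
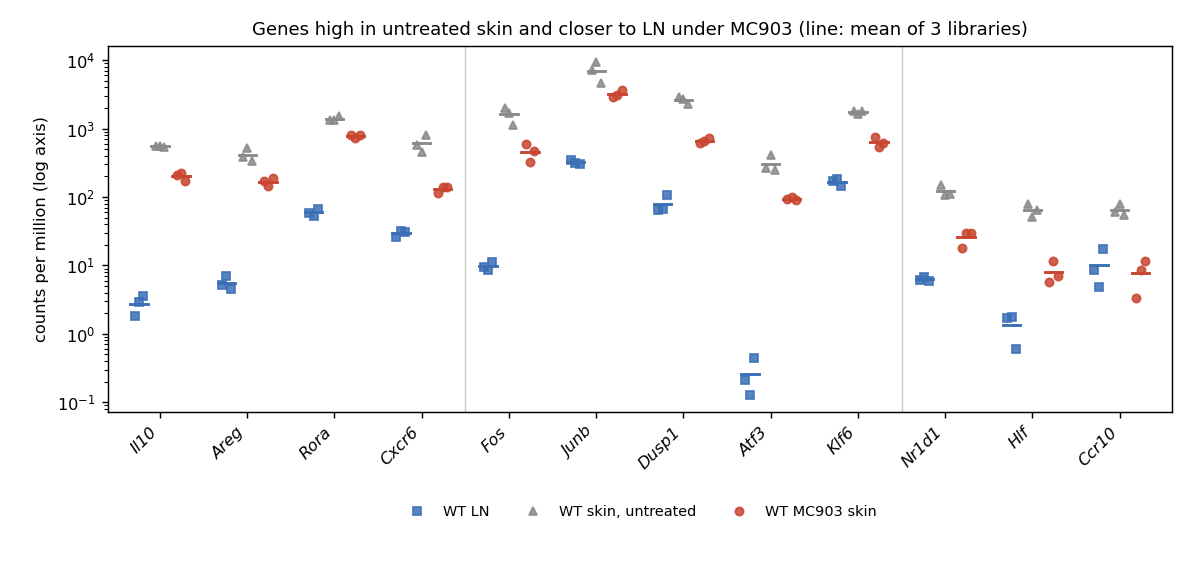
Level of 12 genes in each library, in CPM on a log axis, with LN as squares, untreated skin as triangles, MC903 skin as circles and a line at the mean of 3 libraries. From left to right stand repair and residency genes, early response genes, and clock genes with Ccr10. In each gene the MC903 libraries lie below the untreated ones, and Ccr10 overlaps LN.

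Some differences from LN were larger in MC903 than in untreated skin. Tnfrsf9 (4-1BB), a co-stimulatory receptor of antigen-activated Tregs, was at 4585, 4005 and 4866 CPM in MC903 skin, 293, 306 and 306 in LN and 1421, 1352 and 1975 in untreated skin. It was 14.8-fold above LN (adjusted p = 1.76e-10) and 2.83-fold above untreated skin (adjusted p = 7.81e-05), with no overlap. Il2ra, the high-affinity chain of the IL-2 receptor, was at 1534, 1382 and 1938 CPM in MC903 skin, 451, 442 and 512 in LN and 969, 545 and 1067 in untreated skin, 1.88-fold above untreated skin (adjusted p = 0.00926, and 0.0717 with only these groups in the fit). Il7r, the receptor for IL-7, rose over untreated skin by 0.96 on the log2 scale (adjusted p = 0.00329) and was 4.59-fold above LN. Batf, a factor needed for tissue Tregs, was 5.73-fold above LN (adjusted p = 5.39e-09), and its rise over untreated skin of 0.62 (adjusted p = 0.0184) was lost without MC903 library 3 or untreated library 3, at 0.082 at most.

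Ccr4, the classical skin-homing receptor, was at 149.8, 140.3 and 174 CPM, 28.4, 30.9 and 47.7 in LN and 93.5, 55.8 and 89.6 in untreated skin. Its rise over untreated skin (adjusted p = 0.0144) was lost without MC903 library 3 or untreated library 2, at 0.0582 at most. Cdkn1c, an inhibitor of cell division, was at 66.7, 59.3 and 76.5 CPM in MC903 skin, 3.23, 2.35 and 2.26 in LN and 17.3, 23.9 and 16.1 in untreated skin, and rose over untreated skin by 1.82 (adjusted p = 0.000161). Epas1 (HIF-2 alpha), an oxygen-sensing factor, rose by 1.77 (adjusted p = 0.00443). On the low side Ctsw, a protease of cytotoxic lymphocytes, was at 7.89, 7.39 and 7.46 CPM, 96.8, 144 and 121 in LN and 55.3, 55.8 and 113 in untreated skin, 15.9-fold below LN (adjusted p = 4.69e-08). Bst2 (tetherin), an interferon-stimulated gene, fell further, by 0.86 relative to untreated skin (adjusted p = 0.0112).

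Among the gained genes was Pdcd1 (PD-1), the inhibitory receptor of stimulated T cells. It was at 671, 631 and 596 CPM in MC903 skin, 181, 183 and 237 in LN and 162, 148 and 257 in untreated skin, and LN and untreated skin overlapped. It was 3.16-fold above LN (adjusted p = 7.31e-06) and 3.35-fold above untreated skin (adjusted p = 0.000114). Tnfrsf8 (CD30) was at 31.9, 27.7 and 38.2 CPM in MC903 skin, 5.75, 5.9 and 13.9 in LN and 7.89, 6.19 and 9.48 in untreated skin, 3.82-fold above LN (adjusted p = 0.000145). Pde2a, a phosphodiesterase that lowers cAMP, was at 242, 162 and 248 CPM in MC903 skin, 53.9, 61.2 and 38.4 in LN and 47.2, 44.4 and 48.6 in untreated skin. Ifitm2, a membrane protein of antiviral defence, was at 79.9, 66.3 and 70.5 CPM in MC903 skin, 8.24, 12.7 and 16.9 in LN and 14.8, 19.7 and 22.5 in untreated skin, so that both genes were higher in MC903 skin than in either other group.

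In the other direction, Cd86, a B7 ligand, was at 15.2, 16.5 and 18.9 CPM in MC903 skin, 69.6, 72.7 and 81.6 in LN and 51.6, 44.1 and 89.9 in untreated skin, 4.42-fold below LN (adjusted p = 2.92e-06) and 3.66-fold below untreated skin (adjusted p = 0.000215). Antigen-presenting cells carry Cd86 too, and their marker sum was 531 to 713 CPM in MC903 skin, 860.0 to 2831 in LN and 714 to 1600 in untreated skin. Cd74 led that sum in each group, at means of 464.3, 989.6 and 770.2 CPM. Of 19 of these markers tested, 7 were higher and 3 lower in MC903 skin than in LN, 52.6% called beside 51.1% of all genes. Their part in the level of Cd86 was not tested. The inflammatory cytokine Tnf was at 21.4, 12.8 and 15.3 CPM in MC903 skin, 52.4, 34.6 and 37.3 in LN and 64.01, 95.2 and 52.1 in untreated skin, with a log2 difference from LN of -1.33 (adjusted p = 0.00518). Tnfrsf1a, its first receptor, had a difference of -1.1 (adjusted p = 0.000299). Of 34 TNF receptors and ligands, 10 rose and 13 fell against LN, beside 26.5% and 24.5% of all genes.

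Ccr7 and Klf2 did not follow S1pr1. Ccr7, which guides T cells into and within lymph nodes, was at 241, 238 and 221 CPM in MC903 skin, 566, 596 and 368 in LN and 405, 261 and 536 in untreated skin. It fell by 1.13 on the log2 scale relative to LN (adjusted p = 0.000494), a call that held under every alternative run. Klf2, a factor that drives S1pr1, was at 98.2, 93.8 and 56.6 CPM in MC903 skin, 248, 139 and 149 in LN and 172, 194 and 124 in untreated skin and fell by 1.11 relative to LN (adjusted p = 0.0035). Against untreated skin the adjusted p was 0.0317 for Ccr7 and 0.0332 for Klf2, and the call was lost without any MC903 library in either gene. Untreated skin and LN overlapped in both.

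Tbx21 and Ifng, of type 1 immunity, were among the 19 crossed genes. Tbx21 (T-bet), the type 1 lineage factor, was at 2.8, 3.83 and 3.88 CPM in MC903 skin, 9.66, 11.9 and 16 in LN and 37.1, 32.1 and 23.1 in untreated skin. It was 3.57-fold below LN (adjusted p = 5.85e-05) and 8.78-fold below untreated skin (adjusted p = 2.43e-05). Ifng, the type 1 cytokine it drives, was at 3.4, 0.557 and 1.36 CPM in MC903 skin, 7.56, 4.09 and 5.77 in LN and 17.9, 22.2 and 20.1 in untreated skin, 3.27-fold below LN (adjusted p = 0.00752, and 0.0548 without LN library 3 and MC903 library 3). Of 17 type 1 genes 6 rose and 7 fell against LN in MC903 skin, against 8 and 3 in untreated skin, and the medians were -0.31 and 0.91. Over all genes 26.5% rose and 24.5% fell in MC903 skin, and 28.8% rose and 28.8% fell in untreated skin. CD8, gamma-delta, NK and innate lymphoid markers, cells that also express Ifng and Tbx21, summed to 27.8 to 40.8 CPM in MC903 skin, 46.5 to 68.4 in LN and 30.2 to 45.7 in untreated skin, and their part was not tested.

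Gpr15, a homing receptor that brings T cells to colon and skin, crossed upward. It was at 57.8, 57.7 and 41.4 CPM in MC903 skin, 9.84, 18.5 and 9.92 in LN and 5.34, 4.6 and 3.28 in untreated skin, with no overlap. MC903 skin was 4.1-fold above LN (adjusted p = 1.3e-05) and 11.8-fold above untreated skin (adjusted p = 1.09e-05). Adk, the enzyme that phosphorylates adenosine, was at 214, 158 and 247 CPM in MC903 skin, 119, 129.5 and 122 in LN and 59.4, 61.99 and 59.98 in untreated skin, 1.67-fold above LN (adjusted p = 0.00109). Dusp6, a phosphatase of ERK, crossed downward at 20, 11.96 and 21.7 CPM in MC903 skin, 36.1, 39.6 and 41.02 in LN and 59.5, 55.8 and 54.6 in untreated skin (adjusted p = 0.000485 against LN).

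**Figure D5:**
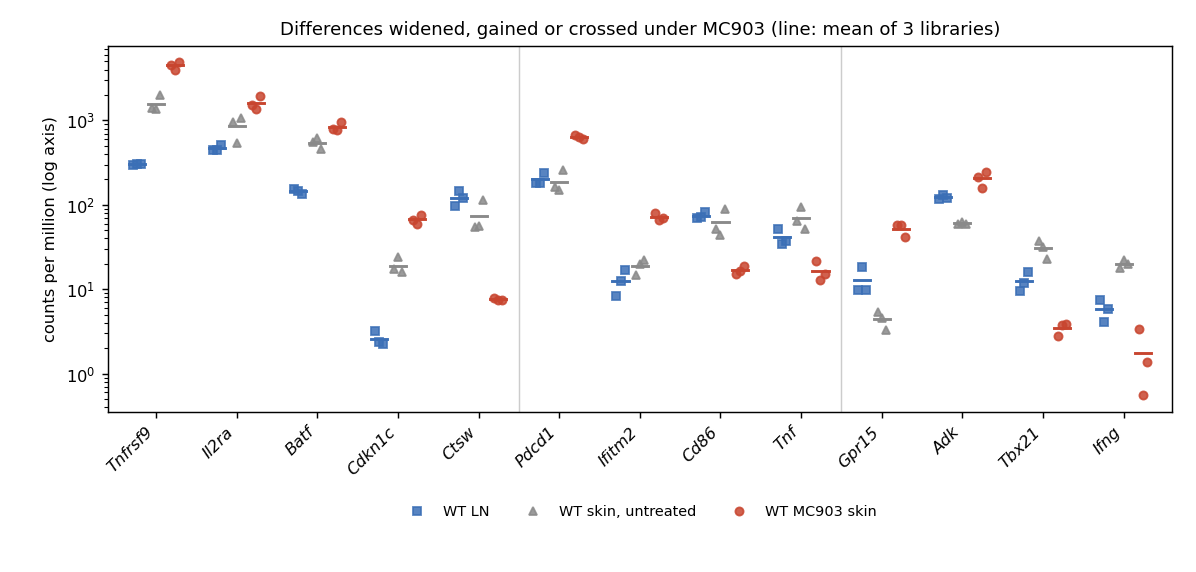
Level of 13 genes in each library, in CPM on a log axis, with LN as squares, untreated skin as triangles, MC903 skin as circles and a line at the mean of 3 libraries. Widened, gained and crossed genes are parted by grey lines. In each gene the MC903 libraries lie outside the LN range.

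The remaining lists are read beside the shares of all genes tested, 26.5% higher and 24.5% lower than LN. NF-kappa-B targets gave 21 higher and 2, Ltb and Tnf, lower of 24 against LN, and 7 lower between MC903 and untreated skin. Those 7 were 3 with library totals and also without MC903 library 1 or untreated library 2, and 4 without MC903 library 2, LN library 1 or LN library 2. Ier3, an early survival gene of that list, was 219.8-fold above LN, and Nfkbiz, an inducible regulator, 7.31-fold. T cell receptor activation genes gave 14 higher and 6 lower of 22, the 6 becoming 3 without MC903 library 1 or 2 or LN library 1 or 3. Suppressive molecules gave 15 higher and 2 lower of 20, and cytokine receptor chains and feedback genes 17 and 6 of 31. Type 17 genes gave 10 higher and 2 lower of 17. Follicular regulatory genes gave 2 higher and 8 lower of 15, and BCL2 family and death genes 11 and 2 of 19.

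Lipid uptake, storage and oxidation genes gave 10 higher and 5 lower of 24, the 5 becoming 3 without LN library 1 or 2. Sterol synthesis genes gave 6 and 4 of 22, shares close to those of all genes, and vitamin D response genes 5 and 4 of 13. In the sterol pathway Cyp51 was 2.57-fold above LN and Dhcr7, which makes cholesterol, 2.93-fold below. Of 33 cell cycle genes 3 rose and 11 fell, 42.4% called beside 51.1% of all genes, with 5 falling without LN library 3 and 6 without MC903 library 1 or 3. Plk1, a mitotic kinase, was at 2.65, 5.87 and 3.73 CPM in MC903 skin against 13.3, 16.7 and 39.5 in LN, where library 3 was the highest, 5.66-fold lower (adjusted p = 0.00047). Ptpn6 (SHP-1), a phosphatase that damps receptor signals, was at 39.3, 45.7 and 45.02 CPM against 419, 434 and 409 in LN and 46.8, 39.9 and 44.6 in untreated skin, 9.71-fold below LN (adjusted p = 5.12e-11). Ramp3, a partner of the calcitonin receptor-like receptor, was 141-fold and Trf, transferrin, 98.2-fold above LN.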

How the data were processed

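RNA was made into cDNA with an ultra-low-input SMART-Seq v4 kit and read as 75-base single ends, per the labels' protocols. The authors deposited raw read counts per gene for 15 libraries, 24015 genes in all. The submitters' processing notes name TopHat2 2.0.6, the mm9 genome and DESeq2, and the counter, its strand setting and the annotation are not given in the sources used here. The reads carry no molecular identifiers, so bounds set against a floor of 3 counts cover counting error only.

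From the counts, 13578 genes passed edgeR's expression filter. All 15 libraries were fitted together by group with TMM factors (0.903 to 1.26) and edgeR 4.0.16's robust quasi-likelihood F test in R 4.3.3, with p-values adjusted by Benjamini-Hochberg over the 13578 genes and calls at an adjusted p under 0.05. The biological coefficient of variation was 37.2%. CPM use the TMM-scaled library sizes, SEs are those of the log2 change and intervals are 95%. Data were simulated for MC903 skin against LN with these 13578 genes. There 58 of 100 genes changed 2-fold and 94 of 100 changed 4-fold were recovered, with 12 false among 164 calls. The changed genes were drawn above a minimum level and went up and down in equal number, and all others were left unchanged. In the real comparison 51.1% of the genes were called, so these rates may not hold there.

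The members and the 36 gene lists were chosen with earlier results of these data known. Named genes were the 10 largest changes each way among genes whose mean log2 CPM was no lower than 3, up to 8 narrowed or widened and up to 6 reached or gained genes per direction, and up to 4 members per list. Genes outside that rule, among them Isg15, Ifit1, Jun, Junb, Egr1 and Gimap9, were chosen after their values were seen, and some genes that the rule names are not reported here. A cAMP response motif was also searched in the early response list, and other short motifs were looked at, and these are not shown. Promoters and gene neighbours come from RefSeq on another build than the counts, and are used by gene symbol only.

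The labels name no pairing of the samples. Same-numbered libraries of the 3 WT groups had deviations correlated at -0.124 to 0.103, and libraries with different numbers at -0.164 to 0.155. With 3 libraries a group this cannot settle whether the numbers pair the samples. Alternatives were other scalings, filters, tools and samples in the fit, a replicate block and leaving out each library.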

Additional observations from a re-analysis of the deposited data

How the results depend on the processing

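Of 166 gene values tested, 154 were called and 140 of these held under every alternative run on genes. None of the 154 changed direction, and of the 12 not called, 2 did: with a library left out, the log2 difference from LN ran from -0.246 to 0.0878 for Isg15 (above 0 without MC903 library 2, LN library 1 or LN library 2) and from -0.79 to 0.26 for Ccr10 (above 0 without LN library 3). Leaving out a library in turn gave 2862 to 3695 genes higher and 2544 to 3524 lower in MC903 skin than LN, 3257 to 3938 and 3376 to 3895 for untreated skin against LN, and 378 to 758 and 389 to 785 for MC903 against untreated skin. It gave 4116 to 5326 kept, 329 to 654 narrowed, 61 to 129 widened, 228 to 433 reached, 99 to 217 gained and 9 to 23 crossed genes. Without LN libraries 1, 2 or 3 the crossed genes were 9, 9 and 11, and without MC903 library 3 12. Without MC903 library 1 the genes higher and lower than untreated skin were 378 and 389, without MC903 library 3 380 and 453, without MC903 library 2 487 lower, and without untreated library 2 430 higher. Of the 622 narrowed genes, 319 were narrowed again without MC903 library 1.

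DESeq2 gave 1120 genes lower than untreated skin, 182 widened and 586 reached. Library totals gave 1205 higher and 457 lower than untreated skin and 30 crossed. With only the WT groups in the fit 450 were higher than untreated skin. With only the compared groups 218 were higher and 323 lower, with 266 narrowed, 40 widened, 125 reached and 74 gained. limma-voom gave 249 reached and 38 crossed. A test against a 2-fold change gave 1314 higher and 831 lower than LN, 1721 and 1313 for untreated skin against LN, 13 and 12 against untreated skin, and 1744 kept, 8 narrowed, 0 widened, 9 reached, 5 gained and 1 crossed, since it asks for more than a difference from 0. Without LN library 3 and MC903 library 3, chosen after seeing the data, 424 were higher than untreated skin, 400 narrowed, 131 gained and 9 crossed. The cause of these shifts was not tested.

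With the replicate number as a block, 3428 genes were higher and 3201 lower than LN, 613 and 619 against untreated skin, with 4992 kept, 537 narrowed and 337 reached. Whether the numbers pair the samples is not known, so this says nothing of an effect's strength.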

Other observations

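Melanocyte and Schwann cell markers summed to 52.8 to 70.2 CPM in MC903 skin and 111 to 117 in LN, where 6 of the 12 were at 0. Mbp led the sum in both groups, at a mean of 53.34 CPM in MC903 skin and 108 in LN. Cartilage and muscle markers summed to 23.4 to 52.0 CPM in MC903 skin, 9.01 to 12.8 in LN and 27.6 to 131.7 in untreated skin, where library 2 was the highest. Of 11 erythroid and platelet markers, 8 were at 0 in each of the 3 groups.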
